A study of Homo sapiens with 8 samples.

Results

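The genes described here are 9 ciliary genes that are textbook targets of other regulatory factor X (RFX) proteins: TTC8, BBS2, BBS4, BBS5, IFT122, IFT172, IFT88, DYNC2LI1 and FOXJ1. They were taken from a named list and make up 9 of the 20037 protein-coding genes on the assembled chromosomes of the RefSeq GRCh38.p14 gene table. All 9 symbols were found there. RFX7 binding was profiled by ChIP-seq, the sequencing of DNA recovered with an antibody to the bound protein, in the established human osteosarcoma cell line U2OS. The cells received Nutlin-3a at 10 µM, a compound that stabilises p53 by blocking MDM2, or the solvent DMSO alone, in each case for 24 h, and no other allele or agent is given in the labels. The labels describe 2 RFX7 ChIP-seq samples and 2 input samples per treatment, with 3 µg of RFX7 antibody per immunoprecipitation. Each treatment is represented by 1 merged list of intervals, 304 after Nutlin-3a and 213 after DMSO, so no value below has a replicate error and nothing was tested between treatments. The read depth behind the lists is unknown.

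RFX proteins bind the X-box, a pair of inverted half-sites of the form GTTGCC, which lies close to the start of many genes for cilia. Cilia are microtubule-based projections of the cell, built by intraflagellar transport (IFT) and served by the BBSome, a coat complex that moves membrane proteins in and out of the cilium. RFX2 and RFX3 are known for switching on such genes, together with FOXJ1, the master regulator of motile cilia. RFX7 belongs to the same family and shares its DNA-binding domain.

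A gene was counted as bound when the midpoint of an RFX7 interval lay inside it or within 5 kb of either end. By this rule 1 of the 9 genes, TTC8, was bound after Nutlin-3a, and 0 of 9 after DMSO. Of all protein-coding genes, 1.11% had a Nutlin-3a interval by the same rule and 0.294% a DMSO interval. At a background of 1.11%, 1 gene of 9 is a description of TTC8 and says little about the list. A count of 0 among 9 genes still allows a share of up to 33.3% (3 counts of the total). BBS2, BBS4, BBS5, IFT122, IFT172, IFT88, DYNC2LI1 and FOXJ1 had no interval in either list. Binding at these 8 genes was thus not detectable at this unknown depth, which does not show that it was absent.

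The promoter sequences come first, because most of these genes hold the RFX half-site in the promoter and only TTC8 had an RFX7 interval. RefSeq promoters on GRCh38.p14, each running from 250 bases before to 50 bases after a listed gene start, were found for 8 of the 9 genes, all but FOXJ1, with 2 listed starts for TTC8 and 1 for each of the others. The half-site GTTGCC, searched on both strands, was in a promoter of 5 genes. The 5 stretches of 30 bases below are written 5′ to 3′ on the strand that reads GTTGCC, with the half-site in capitals, so that the bases after it can be compared. Only the TTC8 promoter was under an RFX7 interval, which here means an overlap of at least 1 bp.
TTC8, chr14:88824609-88824638, plus strand: cgtcgcggGTTGCCgggcagagtcggacgc
BBS5, chr2:169479472-169479501, plus strand: ggcggcccGTTGCCttggagccagagagac
IFT122, chr3:129440204-129440233, plus strand: gcatgtacGTTGCCaggggtaacgcaggta
IFT88, chr13:20567157-20567186, minus strand: gccgagccGTTGCCaagcgcggaatccaag
DYNC2LI1, chr2:43774015-43774044, minus strand: ccttctggGTTGCCatgggagcgacgtcgc

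In a complete X-box the half-site is followed, after 0 to 3 bases, by its reverse complement GGCAAC. The best match to those 6 bases at any of these spacings was 5 of 6 in IFT122, 4 of 6 in TTC8 and in DYNC2LI1, 3 of 6 in BBS5 and 2 of 6 in IFT88. A degenerate X-box, which allows changes in both arms and was searched on both strands, was found in IFT122 and DYNC2LI1 only. Neither of these 2 genes had an interval. Over all protein-coding genes only 0.601% of promoters with the degenerate X-box were under a Nutlin-3a interval, so an absence at 2 genes says little. The promoters of BBS2, BBS4 and IFT172 held neither motif. A match of letters does not make a binding site, and these windows leave out the rest of each locus.

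**Figure D1:**
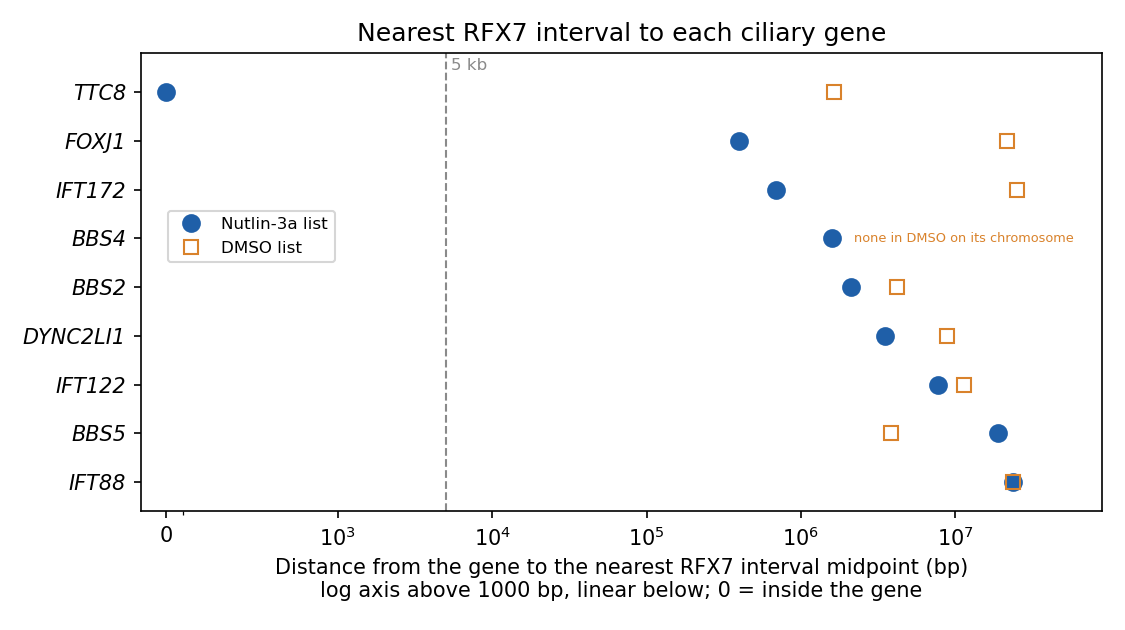
Distance from each of the 9 ciliary genes to the nearest midpoint of an RFX7 interval in the Nutlin-3a list (filled circles) and in the DMSO list (open squares), in bp on an axis that is linear below 1000 bp and logarithmic above. TTC8 has a Nutlin-3a midpoint inside the gene, and the other 8 genes have their nearest one 399.8 kb away or farther.

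TTC8 encodes a subunit of the BBSome, also called BBS8, and lies on chromosome 14 at 88824153 to 88881079, on the plus strand. It had 1 Nutlin-3a interval, at chromosome 14, 88824389 to 88824804. This interval was 416 bp wide and carried a 5.91-fold enrichment and a −log10 q of 25.95, both as deposited by the authors. It ranked 55 of 304 by −log10 q and 102 of 304 by fold enrichment, so its place in the list depended on the column used. The medians of the Nutlin-3a list were 4.71 for fold enrichment and 10.16 for −log10 q, and the TTC8 interval was above both.

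The TTC8 interval lay at a gene start. Of the 2 starts listed for the gene, the one at 88824651 was inside the interval and 55 bp from its midpoint, and the one at 88824153 was 443 bp from the midpoint and outside the interval. The whole 300-base promoter window of the inner start was covered. The half-site, at 88824617 to 88824622 and 34 to 29 bases before that start, was 23 bp from the midpoint. The 250 bases before the start are given because they hold the TTC8 half-site, the only one found in the promoter windows searched for 8 of these genes that was under an interval, at chr14:88824401-88824650 on the plus strand, with the half-site in capitals.
TTC8: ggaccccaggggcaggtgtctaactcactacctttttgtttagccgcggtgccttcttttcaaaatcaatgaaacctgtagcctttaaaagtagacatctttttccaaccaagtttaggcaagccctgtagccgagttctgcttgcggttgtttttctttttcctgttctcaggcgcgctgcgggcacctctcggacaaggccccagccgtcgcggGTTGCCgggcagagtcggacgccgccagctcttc

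In the DMSO list the nearest interval to TTC8 was 1.65 Mb away. The site was therefore listed only after Nutlin-3a. In that list 22 intervals overlapped a DMSO interval by at least 1 bp, 18 of them ranked above TTC8 and 4 below, down to rank 78. TTC8 thus sat in the part of the list where some sites were shared and others were not. The median −log10 q was 10.16 after Nutlin-3a and 2.49 after DMSO. This score depends on the unknown depth, so the medians do not show a difference in binding strength. Whether RFX7 occupancy at TTC8 differed between treatments was not tested, because neither list has values per replicate.

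**Figure D2:**
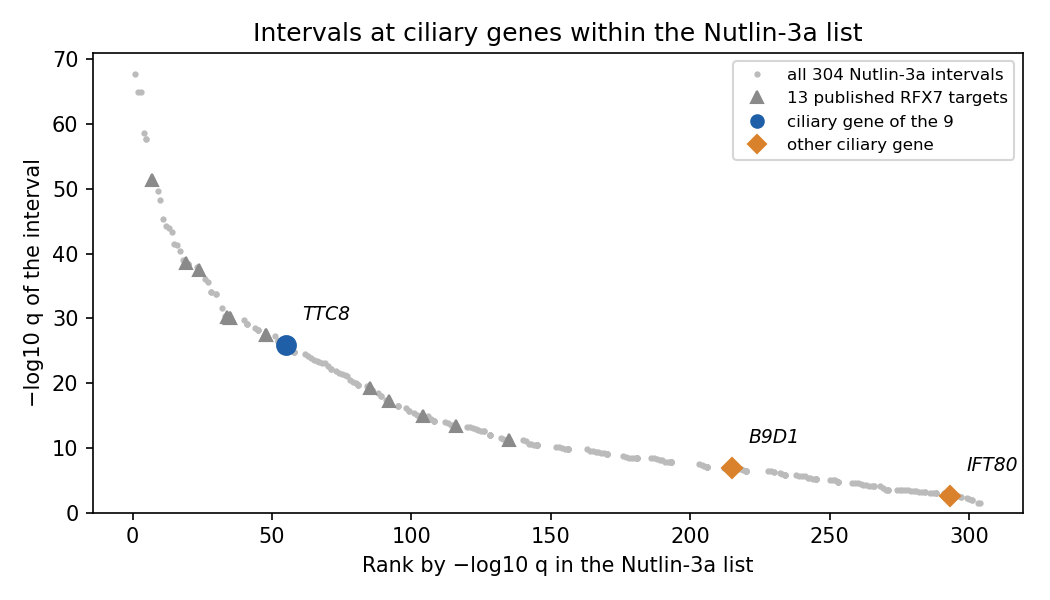
The −log10 q of all 304 Nutlin-3a intervals (vertical axis) against their rank (horizontal axis), with TTC8 as a circle, 2 ciliary genes of a wider list as diamonds, and the best-ranked interval of each of 13 published RFX7 targets as triangles. TTC8, at rank 55, sits among the published targets, while B9D1 and IFT80, at ranks 215 and 293, sit below all of them.

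Published RFX7 targets give a scale for this interval, although the study behind them used these same libraries, so they are not independent. All 13 had a Nutlin-3a interval by the same rule, at best ranks from 7 to 135, and 8 of them ranked above TTC8. One of the closest in rank was PDCD4, an inhibitor of translation initiation, at rank 48 with a −log10 q of 27.36 and a midpoint 152 bp from its start. In rank, TTC8 fell within the spread of these targets. Its 55 bp from a listed start was shorter than in any of the 12 targets with one, where the nearest midpoint was between 74 bp (REV3L) and 2289 bp (JUNB) away. Such closeness was not particular to TTC8. The weaker interval at rank 218 was 4 bp from a start of GOLGB1, and that at rank 293 was 5 bp from a start of SMC4.

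Among the BBSome genes without an interval, BBS2 was 2.11 Mb from the nearest Nutlin-3a midpoint and 4.17 Mb from the nearest DMSO midpoint. BBS4 was 1.59 Mb from the nearest Nutlin-3a midpoint, and the DMSO list had none on chromosome 15. BBS5 was 19.0 Mb and 3.81 Mb away. These genes encode structural subunits of the same complex as TTC8, and none of the 3 was near an interval.

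Of the transport genes, IFT122 encodes a subunit of the IFT-A complex, which serves retrograde transport. It was 7.69 Mb from the nearest Nutlin-3a midpoint and 11.4 Mb from the nearest DMSO midpoint. IFT172 and IFT88 encode subunits of IFT-B, the complex of anterograde transport. IFT172 was 0.686 Mb and 25.1 Mb away. IFT88 was 23.7 Mb away in both lists, since the nearest interval was the same shared site at TSC22D1. DYNC2LI1, the light intermediate chain of the dynein-2 motor for retrograde transport, was 3.52 Mb and 8.80 Mb away.

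FOXJ1 was the closest of the 8 genes to a Nutlin-3a midpoint, at 399.8 kb. That interval, ranked 89 with a −log10 q of 18.07, was inside PRCD and CYGB and 1025 bp from a start of PRCD. In the DMSO list the distance was 21.5 Mb. No gene of the 9 lay just outside the 5 kb limit, and widening it to 50 kb added none, although the share of all protein-coding genes with an interval then rose to 2.94% after Nutlin-3a and 0.559% after DMSO. The median distance to the nearest Nutlin-3a midpoint was 2.11 Mb for the 9 genes and 2.88 Mb for all protein-coding genes with an interval on their chromosome. For the DMSO list the medians were 10.1 Mb over 8 genes and 8.17 Mb.

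Promoter sharing was examined next, since an interval between neighbouring starts cannot be given to a single gene. The TTC8 interval had no such neighbour: the nearest other protein-coding gene, EML5, was 31643 bp from its midpoint, and the nearest other annotated gene was the pseudogene RNU4-92P at 4164 bp. Of the 9 genes, 2 had a start within 1 kb of the start of another protein-coding gene. Of all protein-coding genes 16.8% did by the same rule, which used both gene ends where no start was listed. BBS4 was 25 bp from the start of HIGD2B and IFT122 276 bp from that of MBD4, a DNA glycosylase, both on the opposite strand. Neither pair had an interval. With non-coding genes included, 5 of the 9 had a neighbour within 1 kb, and the share of all genes by this wider rule was not computed. The additions were IFT88, DYNC2LI1 and FOXJ1, each beside a long non-coding RNA gene and each without an interval. DYNC2LI1 and its neighbour were on the same strand. FOXJ1, at 689 bp, was measured between gene ends without a listed strand, so a shared promoter is not shown for it.

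**Figure D3:**
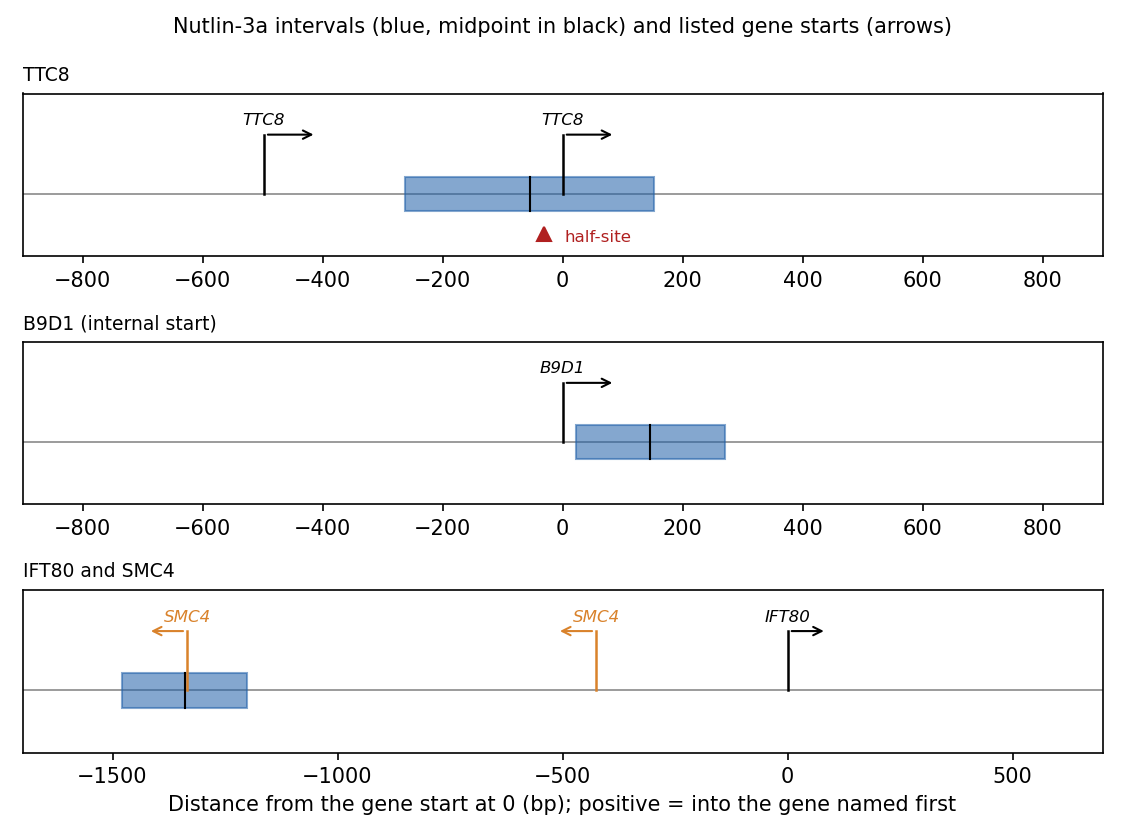
Nutlin-3a intervals at TTC8, B9D1 and IFT80 drawn to scale against distance in bp from a gene start at 0, with listed starts as arrows, interval midpoints as black lines and the TTC8 half-site as a triangle. The TTC8 interval covers the start at 0, the B9D1 interval begins 22 bp after an internal start, and the interval near IFT80 covers a start of SMC4 and lies 1339 bp before IFT80 by its midpoint.

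A wider list of 83 ciliary genes, the 9 included, was counted by the same rule. After Nutlin-3a 3 of 83 had an interval, TTC8, B9D1 and IFT80, and after DMSO 0 of 83, which allows a share of up to 3.61%. By group, these were 1 of 12 genes of the BBSome and its partners, 1 of 16 of the transition zone and 1 of 17 of IFT-B. The other groups had none: 0 of 6 for IFT-A, 0 of 5 for dynein-2, 0 of 4 for kinesin-2, 0 of 5 for ciliary membrane traffic, 0 of 11 for the motile axoneme and 0 of 7 for regulators of ciliogenesis, which include RFX2, RFX3 and RFX4. The background of 1.11% holds here too, and 3 of 83 was not tested against it. When intervals under a −log10 q of 10 were left out, TTC8 was the only gene of the 83 with an interval, and the background was 0.694%.

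Both further intervals were below the list's median −log10 q, and each had another gene's start nearby. B9D1 encodes a protein of the transition zone, the gate at the base of the cilium. Its interval, at chromosome 17, 19362453 to 19362701, ranked 215, at 4.30-fold enrichment and a −log10 q of 6.91. The midpoint was 146 bp after an internal start of B9D1 and 200 bp from the start of the non-coding gene LOC105371573, while the outer start of B9D1 was 15336 bp away. The interval counted for IFT80, an IFT-B subunit, was at chromosome 3, 160400426 to 160400703, and ranked 293, at 2.84-fold enrichment and a −log10 q of 2.56. Its midpoint was 1339 bp from IFT80, so that a limit of 1 kb left this gene out, but inside SMC4, the condensin subunit, and 5 bp from a start of that gene, which runs the other way. The first SMC4 start was 425 bp from that of IFT80, so the 2 genes share a promoter region, and the interval was at the inner SMC4 start.

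The motif shares were then set beside the intervals. In the wider list 71 of 83 genes had 94 listed promoters. Of these promoters 26, or 27.7%, held the degenerate X-box and 36, or 38.3%, the half-site. Over all 22199 promoters of protein-coding genes the shares were 7.49% and 12.6%. For the 9 genes, 2 of 9 promoters held the X-box and 5 of 9 the half-site. Promoters of the same gene can overlap, and a half-site can be part of an X-box, so these are descriptions with no test. The half-sites of the 9 genes were all within 50 bp of a start, as were 69.6% of the 46 half-sites in the wider list, against 36.2% of the 3034 half-sites of all promoters. That stretch makes up 33.3% of each promoter window. In promoters under a Nutlin-3a interval 29.7% of 37 half-sites were within it.

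None of the 26 ciliary promoters with an X-box was under a Nutlin-3a interval, and none under a DMSO interval. Since 0.532% of all promoters were under a Nutlin-3a interval and 0.0405% under a DMSO interval, a count of 0 in 26, which allows up to 11.5%, is what so low a background would also give. Across all protein-coding genes, 10 of 1663 promoters with an X-box (0.601%) and 108 of 20536 without one (0.526%) were under a Nutlin-3a interval. For the half-site the counts were 35 of 2789 (1.25%) and 83 of 19410 (0.428%). Seen the other way, 29.7% of the 118 promoters under a Nutlin-3a interval held a half-site, as the TTC8 promoter did, and 8.47% an X-box.

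**Figure D4:**
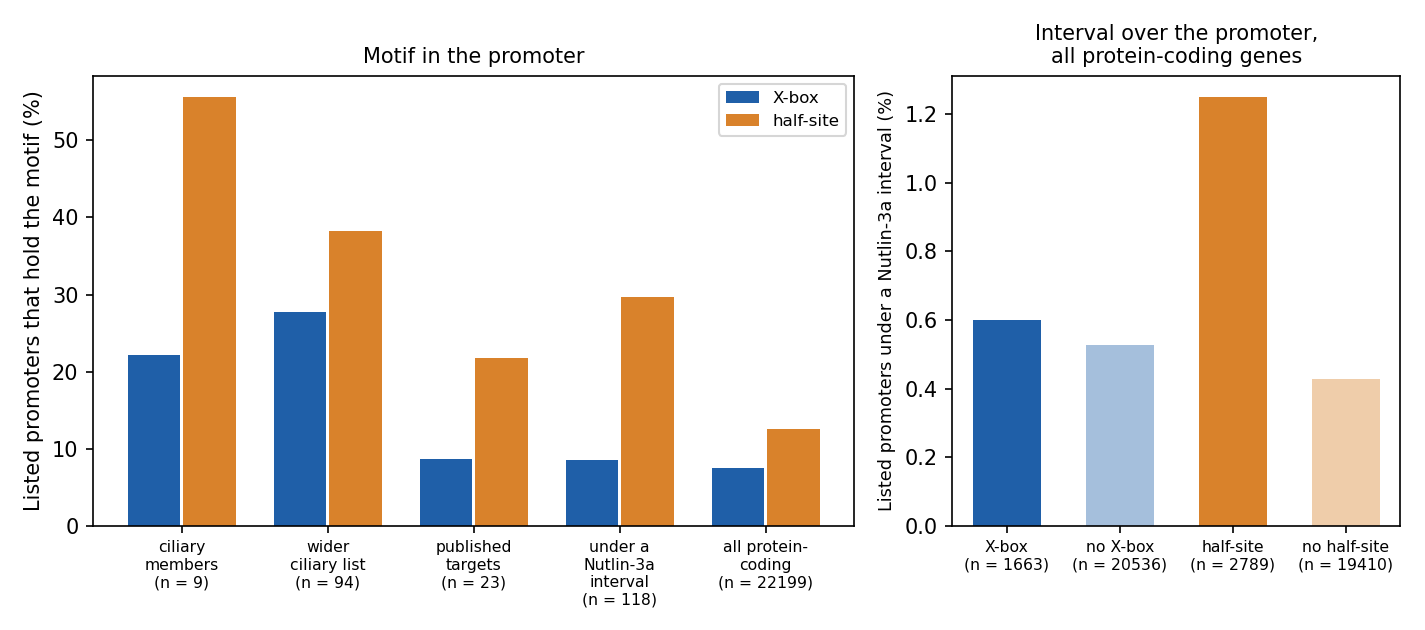
Left, the share of listed promoters that hold the degenerate X-box or the half-site GTTGCC, in percent, for the 9 ciliary genes, the wider ciliary list, published RFX7 targets, promoters under a Nutlin-3a interval and all protein-coding genes. Right, the share of promoters under a Nutlin-3a interval, in percent, with and without each motif. Ciliary promoters hold X-boxes at 27.7% against 8.47% of promoters under an interval, and promoters with a half-site are under an interval at 1.25% against 0.428% without.

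The strictest form of the motif, the half-site followed after 0 to 3 bases by its exact reverse complement, was in 41 promoters of 38 protein-coding genes. None of the 41 was under a Nutlin-3a interval, which allows a share of up to 7.32%, and of the 22158 promoters without it 118 (0.533%) were. Some of the 41 overlap, between starts of the same gene or between neighbouring genes. Separate elements are therefore fewer than 41, and the share allowed is higher than stated. At so low a background, 0 of 41 does not set these promoters apart. Named after their values were seen, 3 genes of the wider list had it: TCTN1 and TCTN3, proteins of the transition zone, and RFX4, a family member. So did ABAT, a published RFX7 target that breaks down the transmitter GABA, whose Nutlin-3a interval was at another start of the gene, 174 bp from the midpoint. The TCTN3 element also lies in the promoter window of ENTPD1, a neighbour on the opposite strand. It is nearer to the ENTPD1 start at 95694185 than to the TCTN3 start at 95693927, so it cannot be given to TCTN3 alone. The 4 elements are shown, with both arms and the spacer in capitals, as examples of the complete motif in promoters without a listed interval.
TCTN1, chr12:110614121-110614150, plus strand: ctgtcgcgGTTGCCGGGCAACgcgctgtcc
TCTN3, chr10:95694121-95694150, minus strand: cactgacgGTTGCCAGGCAACggaggcacg
RFX4, chr12:106601129-106601158, plus strand: cctgtggcGTTGCCATGGCAACccactgac
ABAT, chr16:8712782-8712811, plus strand: tcccattgGTTGCCTCGGCAACggcgtaat

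The second arm was also compared at all half-sites. Among 33 promoters under a Nutlin-3a interval in which it could be read, the best match to GGCAAC had a median of 3 of 6 bases, and 18.2% matched at 5 or more. Among 2678 other promoters the median was also 3, and 11.9% matched at 5 or more. The 4 of 6 at TTC8 was close to both. Promoters under a Nutlin-3a interval held 32 half-sites, counted once by position, of which 27 were inside the interval. Across the 32 the distance to the midpoint had a median of 109 bp and ranged from 8 to 472 bp. The 23 bp at TTC8 was thus in the shorter part of that range. These promoters were picked for overlapping an interval, so short distances follow in part from that choice. Other positions in the same promoters were not compared.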

How the data were processed

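RFX7 ChIP-seq and input DNA were sequenced from U2OS cells, and 2 deposited interval lists were analysed, 1 per treatment. Their rows are named as merged peaks. The submitters' processing notes name hg38, bcl2fastq 2.20.0.422, Trimmomatic 0.39, cutadapt 2.10, SAMtools 1.10, Picard, MACS2 2.2.7.1 and bedtools 2.29.2, without roles. How replicates were merged is not given in the sources used here. Each row deposited by the authors holds a fold enrichment, a −log10 q and a score, which repeats the −log10 q at lower precision and was not used. The summit column is empty, so midpoints were used. Fold and −log10 q depend on depth, which is unknown, and served for ranks within a list only. Input and single-replicate data were not analysed here.

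Genes and promoters were those of RefSeq GRCh38.p14. Exons were not used here. Distances, counts and motif matches were computed in Python 3.11.15 with pandas 2.3.3 and tested on simulated data. Floors and shares cover counting error only. The members and lists were chosen with earlier results of these data known. No test was run. All 9 members are named, with wider-list genes that had an interval, their neighbours and published targets.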

Additional observations from a re-analysis of the deposited data

How the results depend on the processing

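TTC8 was the only one of the 9 genes with a Nutlin-3a interval under each of 6 alternatives, and 0 had a DMSO interval under the same 6: limits of 1 kb and 50 kb, any base in place of the midpoint, 2 thresholds on −log10 q, and a midpoint within 1 kb of a listed start, chosen after seeing the data. For these 9 genes the 1 kb limit, the 2 thresholds and the rule on listed starts could only remove genes. The DMSO count of 0 therefore could not change under them. Beyond TTC8, the nearest gene was FOXJ1, 399.8 kb from a Nutlin-3a midpoint, so the wider rules had none within reach. This agreement is thus no independent support. Of all protein-coding genes, the Nutlin-3a share was 0.938% at 1 kb, 1.11% with any base and 0.689% at or above the list median −log10 q. For a midpoint within 1 kb of a listed start it was 0.732% of 15843 genes. In the same order the DMSO shares were 0.27%, 0.294%, 0.19% and 0.0505%, and 0.015% at a −log10 q of at least 10. TTC8 ranked 102 by fold enrichment in place of 55, and was unshared under both other overlap rules. The wider list had 5 genes with a Nutlin-3a interval at 50 kb, adding BBIP1 and IQCB1, whose intervals lay at PDCD4 and GOLGB1, and 1 gene at a −log10 q of at least 10. It had 2, TTC8 and B9D1 without IFT80, both at 1 kb and with a midpoint within 1 kb of a listed start. Its DMSO count was 0 throughout. Members with a neighbour within 1 kb numbered 5 with all annotated genes in place of 2, with FOXJ1 measured between gene ends. Members with the half-site numbered 5, and with the half-site and its exact reverse complement 0, in place of 2 with the degenerate X-box. The changed counts follow from the wider or stricter rule, and the TTC8 rank changed with the column used. No paired analysis was possible because the lists are merged over replicates and carry no replicate numbers, and leaving out replicates was not run for the same reason. The unknown depth limits what an absent interval can say.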
